A study of Mus musculus with 6 samples.

Results

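The genes described here are those of the proteasome: every protein-coding gene whose symbol starts with Psma, Psmb, Psmc, Psmd, Psme, Psmf or Psmg followed by a digit in GENCODE release M21 of the mouse. The rule took 50 genes, all of them listed, of 21135 genes in the table. It also takes Psmc3ip, which encodes a partner of meiotic recombination factors and no proteasome subunit. That gene was kept and is named apart. Of the 50 members 49 had a mean of at least 10 normalised reads and were tested. Psmb11 was too low.

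RNA was sequenced from DN3 thymocytes of C57BL/6 mice, the stage of the thymus at which cells without CD4 and CD8 rearrange the T-cell receptor beta gene. In 3 libraries, called mutant below, both copies of NMe, the Notch-dependent distal enhancer of Myc, carried mutations in GATA sites 1 and 2, and in 3 libraries NMe was wild type. The labels give no age and do not say whether each library came from 1 animal or from a pool. Values are read counts that the authors divided by a size factor for each library, called normalised read counts here.

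Depth ran from 38591038 to 48329750 recovered reads in the mutant libraries and from 42383923 to 51306934 in the wild-type libraries. Myc was at 5562, 4612 and 6165 in the mutant libraries and at 18041, 19223 and 20196 in the wild-type libraries. The DN3 marker Il2ra ranged from 96837 to 110890 in the mutant and from 55810 to 61247 in the wild-type libraries, while Cd4 and Cd8a stayed at or under 85.4 in every library. Of the 10 DN3 markers listed 5 rose, Il2ra and Dtx1 among them (log2 change 0.85 and 1.91), and Rag1 fell (-0.58, adjusted p = 0.0035), with a median of 0.36. Of all tested genes 7.94% were higher and 10.9% lower. With 1 library left out 2 to 6 of the 10 markers rose, and without the trend of variance on expression 2 did. Of all 17815 tested genes 819 to 1176 were higher with 1 library left out, and 749 without the trend. Globin and other erythroid genes came to 34.2 to 56.1 in the mutant libraries, and to 61.5, 8177 and 16.0 in wild type replicates 1, 2 and 3, which is 0.0179% of the reads of wild type replicate 2. In bulk RNA, fewer cells of a kind and less RNA per cell cannot be told apart.

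The proteasome degrades proteins that carry ubiquitin chains. Its barrel, the 20S core, is built of outer alpha rings and inner beta rings, with the catalytic sites on the beta subunits Psmb5, Psmb6 and Psmb7. The 19S cap sits on the end of the barrel: its base holds the ATPases that unfold substrates, and its lid removes ubiquitin. In cells exposed to interferon, and in many lymphoid cells, Psmb8, Psmb9 and Psmb10 take the places of the catalytic subunits and form the immunoproteasome, which favours peptides for class I histocompatibility molecules.

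Most proteasome genes had lower values in the mutant, by small amounts. Of 49 tested members 17 fell (34.7%) and Psmb9 alone rose, against 10.9% of all 17815 tested genes lower and 7.94% higher. The call is an adjusted p under 0.05 in limma's moderated test over all tested genes. The median log2 change of the members was -0.26, against 0.03 for all tested genes, and 43 members had a negative value (87.8%, against 47.9% of all genes). The strongest falls were those of Psmg1 (58.9% of the wild-type mean), Psmd7 (64.2%) and Psme3 (65.2%). The mutant libraries lay below all wild-type libraries for 27 of the tested members, and above them for 2, Psmb9 and Psme4, where 20.3% and 18.0% of all tested genes did so.

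How firmly the 17 were called depended on single libraries. Leaving out wild type replicate 2 left 5 lower members (Psmd1, Psmd7, Psmd14, Psme3 and Psmg1), with 6.10% of all genes lower. Without mutant replicate 2 there were 8 (7.77% of all genes). Without mutant replicate 3 or wild type replicate 3 there were 10 in each case (8.66% and 7.53%). Without wild type replicate 1 there were 14 (7.99%), and without mutant replicate 1 there were 22 (9.99%). The share of all genes called lower was thus below the 10.9% of the full fit each time. Those 5 members were called in each of these 6 fits. Wild type replicate 2 is the library with the erythroid reads, whose part in these counts was not tested. In a limma fit without the trend of variance on expression 3 of 49 members fell (Psmd7, Psme3 and Psmg1). Of all genes 1167 of 17815 were lower in that fit (6.55%), so the members no longer stood out by their number of calls. Psmb9 did not pass there (adjusted p = 0.075). With library totals made equal 14 members fell and 2 rose, and of all genes 1647 fell and 1827 rose, against 1938 that fell and 1414 that rose with the authors' scaling.

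**Figure D1:**
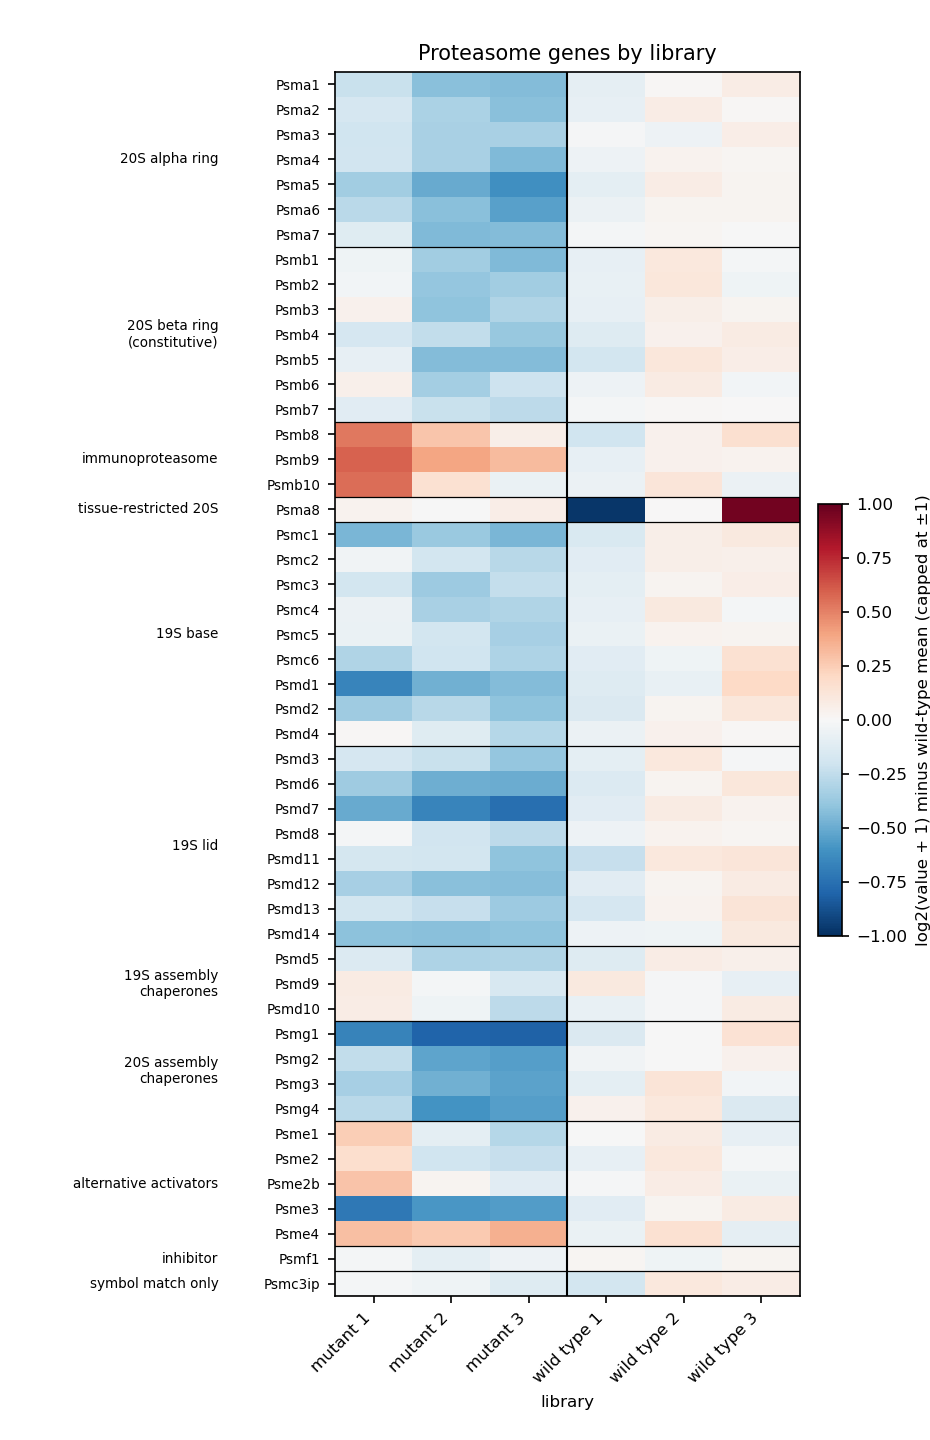
Heat map of the 49 tested genes (rows, by role) in the 6 libraries (columns, mutant left of wild type). Colour is log2(value + 1) minus the mean of the wild-type libraries, capped at 1 either way. Blue fills most rows of the mutant columns, Psmb8, Psmb9 and Psme4 are red or pale red there, and mutant replicate 1 is the palest of the mutant columns in the core subunits.

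**Figure D2:**
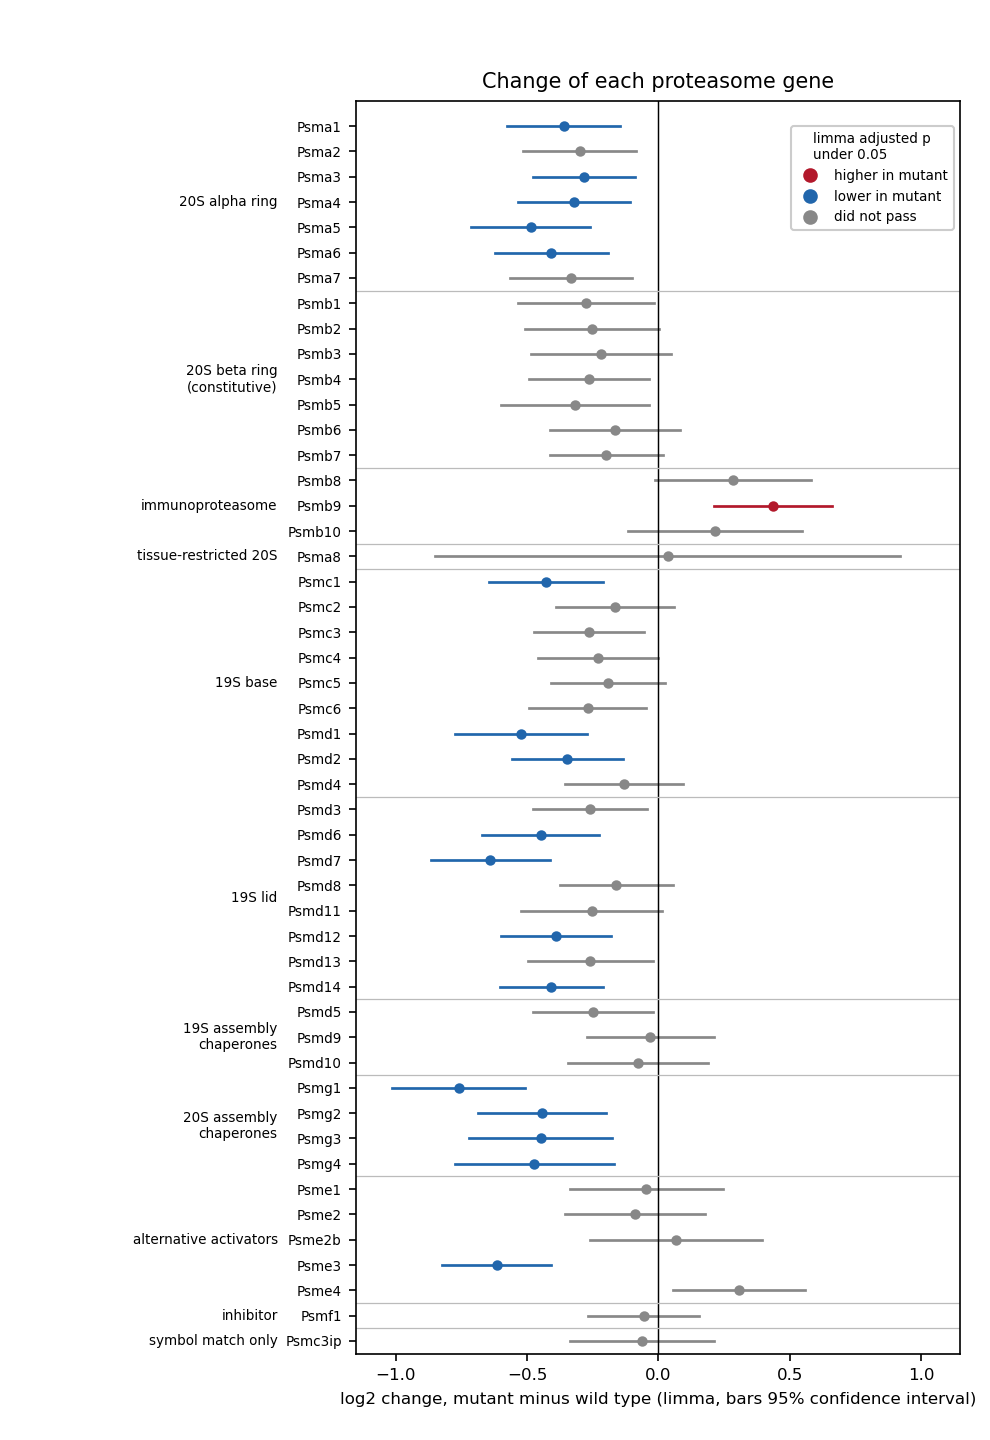
Log2 change of each tested gene, mutant minus wild type, with 95% confidence intervals from limma, by role. The 17 genes that fell are blue, Psmb9, which rose, is red, and 31 that did not pass are grey.

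Because most of these genes had changes of the same sign, the sequence before their transcription starts was examined. RefSeq windows on GRCm38.p6 were found for 42 members. Those of Psma8, Psmb1, Psmb2, Psmb7, Psmc3, Psmd3, Psmd7 and Psmg2 were not used here. The 250 bases upstream were searched on both strands for CACGTG (the E-box bound by MYC with MAX), TGACNNNGC (a core of the antioxidant response element bound by Nfe2l1), CCAAT, GAAA repeated after 2 bases (a core of interferon-stimulated response elements) and TTCNNNGAA (the gamma-activated site). The E-box was in 4 of 42 members (9.52%, against 6.86% of 27025 genes), namely Psma4, Psmb10, Psmd9 and Psme3, and in 2 of the 15 members with a window that fell. The antioxidant element core was in 5 (11.9%, against 11.5%), among them Psmb5 and Psmb6. CCAAT was in 15 (35.7%, against 37.5%) and the gamma-activated site in Psmb8 and Psmg1 (4.76%, against 8.13%). The interferon element core was in 3 (7.14%, against 3.46%), namely Psmb3, Psmd4 and Psmd9, which were not called in the full fit. The windows of Psmb8, Psmb9 and Psmb10 did not hold it. A match shows letters in a window, not binding.

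The windows of the 3 fallen members with the smallest p that had one, and of the gene that rose, are shown 5′ to 3′ on the strand of the gene, with matches in capitals. Psmg1 is at chr16:95990961-95991210 (minus strand), Psme3 at chr11:101315963-101316212 (plus), Psma5 at chr3:108256676-108256925 (plus) and Psmb9 at chr17:34187331-34187580 (minus). Each ends at the base before the RefSeq start. That of Psmb9 lies inside the GENCODE span of the gene (34181987 to 34187764). Psme3 holds CACGTG from 44 bases upstream and CCAAT, on the other strand, from 14 bases upstream.
Psmg1: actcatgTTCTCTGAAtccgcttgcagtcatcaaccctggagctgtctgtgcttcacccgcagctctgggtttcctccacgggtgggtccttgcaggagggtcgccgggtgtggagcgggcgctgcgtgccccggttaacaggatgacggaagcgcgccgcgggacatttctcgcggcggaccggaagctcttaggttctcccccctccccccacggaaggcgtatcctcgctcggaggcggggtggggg
Psme3: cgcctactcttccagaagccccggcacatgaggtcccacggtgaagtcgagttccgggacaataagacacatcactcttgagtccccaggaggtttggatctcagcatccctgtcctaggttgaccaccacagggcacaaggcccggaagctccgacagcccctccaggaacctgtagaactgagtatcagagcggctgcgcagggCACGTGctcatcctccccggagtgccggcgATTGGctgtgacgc
Psma5: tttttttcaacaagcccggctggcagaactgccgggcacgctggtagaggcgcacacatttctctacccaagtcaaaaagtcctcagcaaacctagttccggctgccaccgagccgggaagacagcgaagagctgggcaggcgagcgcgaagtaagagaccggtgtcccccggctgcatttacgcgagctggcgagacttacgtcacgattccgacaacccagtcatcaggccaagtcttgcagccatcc
Psmb9: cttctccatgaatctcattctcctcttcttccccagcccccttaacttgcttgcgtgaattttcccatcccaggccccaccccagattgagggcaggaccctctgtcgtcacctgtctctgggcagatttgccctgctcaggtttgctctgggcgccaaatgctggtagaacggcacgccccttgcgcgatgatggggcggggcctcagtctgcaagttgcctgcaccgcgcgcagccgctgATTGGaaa
In Psmg1 the capitals mark the gamma-activated site, 243 bases upstream, and in Psmb9 the CCAAT box on the other strand, 8 bases upstream. Psma5, with the lowest log2 change of the alpha subunits, has no match.

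The alpha ring gates the barrel and gives the cap its seat. Of its 7 subunits 5 fell, and the mutant libraries lay below the wild-type libraries for all 7. Their median log2 change was -0.33, with means at 71.5% to 82.2% of the wild type. Psma5 was at 8810, 7926 and 7349 in the mutant libraries and at 10462, 11829 and 11414 in the wild-type libraries. Its log2 change was -0.49 ± 0.10 (SE, adjusted p = 0.00896), and the adjusted p was 0.0511 when wild type replicate 2 was left out.

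Psma6 had 12914, 11666 and 10693 in the mutant and 14936, 15890 and 15856 in the wild type (-0.41 ± 0.10, adjusted p = 0.0164). The call was lost without mutant replicate 2 (adjusted p = 0.0522) or wild type replicate 2 (0.074). Psma3, the alpha subunit with the change nearest to 0, had 16126, 14774 and 14761 in the mutant and 18333, 17864 and 19339 in the wild type. Psma1 changed by -0.36 ± 0.10 (adjusted p = 0.027), Psma4 by -0.32 ± 0.10 (0.0429) and Psma3 by -0.28 ± 0.09 (0.0466). Psma1 lost its call on leaving out mutant replicates 2 or 3 or wild type replicates 2 or 3 (adjusted p up to 0.0985), and Psma3 and Psma4 kept theirs only in the fit that dropped mutant replicate 1 (adjusted p up to 0.136 and 0.145 in the other 5). Above the threshold were Psma7 (-0.33 ± 0.10, adjusted p = 0.0513) and Psma2 (-0.30 ± 0.10, adjusted p = 0.0551). Both passed without mutant replicate 1 (adjusted p = 0.0106 and 0.0306).

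The beta ring carries the catalytic sites inside the barrel. None of its 7 constitutive subunits passed the test in limma over all libraries, although all 7 had negative values, from -0.32 (Psmb5) to -0.16 (Psmb6), with a median of -0.25 and adjusted p from 0.10 to 0.329. At an unadjusted p under 0.05, 3 of them would count, and edgeR and DESeq2 called 0 as well, while a limma fit with library weights called Psmb1, Psmb2 and Psmb5. Psmb5, the chymotrypsin-like subunit, had 7725, 6055 and 6041 in the mutant libraries and 7201, 8864 and 8567 in the wild-type libraries. The groups overlapped through mutant replicate 1 and wild type replicate 1.

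Psmb6, the caspase-like subunit, was at 16142, 12326 and 13479 in the mutant and 15016, 16448 and 15299 in the wild type, so that mutant replicate 1 lay within the wild-type range. Psmb7, the trypsin-like subunit, was at 3346, 3093 and 3022 in the mutant and 3572, 3642 and 3626 in the wild type, with no overlap (-0.20 ± 0.10, adjusted p = 0.182). Psmb4 did not overlap either (6326, 6013 and 5470 in the mutant, 6523, 7355 and 7523 in the wild type, adjusted p = 0.10). Psmb1, Psmb2 and Psmb3, which are not catalytic, were at 83.0%, 84.4% and 86.5% of the wild-type mean. Without mutant replicate 1, Psmb1, Psmb2, Psmb3 and Psmb5 were called lower (adjusted p = 0.0285, 0.0336, 0.0359 and 0.0354).

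The immunoproteasome subunits went the other way in value. Psmb9, which replaces Psmb6, had 11925, 10422 and 9844 in the mutant libraries and 7490, 8159 and 8094 in the wild-type libraries. Every mutant library was above every wild-type library, and the mean was 35.6% higher in the mutant (10730.5 ± 1074 in the mutant and 7914 ± 369 in the wild type, SD, n = 3 each). On the log2 scale it changed by 0.44 ± 0.10 (95% confidence interval 0.21 to 0.66, adjusted p = 0.0148), and the call was lost in the fit that dropped wild type replicate 1 (0.40, adjusted p = 0.056). Psmb9 lies on chromosome 17 (GRCm38, 34181987 to 34187764), and 5.79% of its merged exon bases are shared with Tap1 on the other strand, which these unstranded libraries cannot tell apart.

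Psmb8, which replaces Psmb5, was the most abundant of all members in reads. It had 32466, 27312 and 23474 in the mutant and 19618, 23282 and 25215 in the wild type. Mutant replicate 3 lay inside the wild-type range, and the log2 change of 0.28 ± 0.13 did not pass (interval -0.01 to 0.58, adjusted p = 0.167). Of its exon bases 14.7% overlap the antisense gene Gm20496.

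Psmb10, which replaces Psmb7, had 8349, 6311 and 5405 in the mutant and 5444, 6153 and 5424 in the wild type. The difference rested on mutant replicate 1: the log2 change was 0.22 ± 0.15 (adjusted p = 0.341) with that library and 0.04 without it. Its interval of -0.12 to 0.55, like that of Psmb8, holds both 0 and the change of Psmb9, and differences among the 3 genes were not tested.

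**Figure D3:**
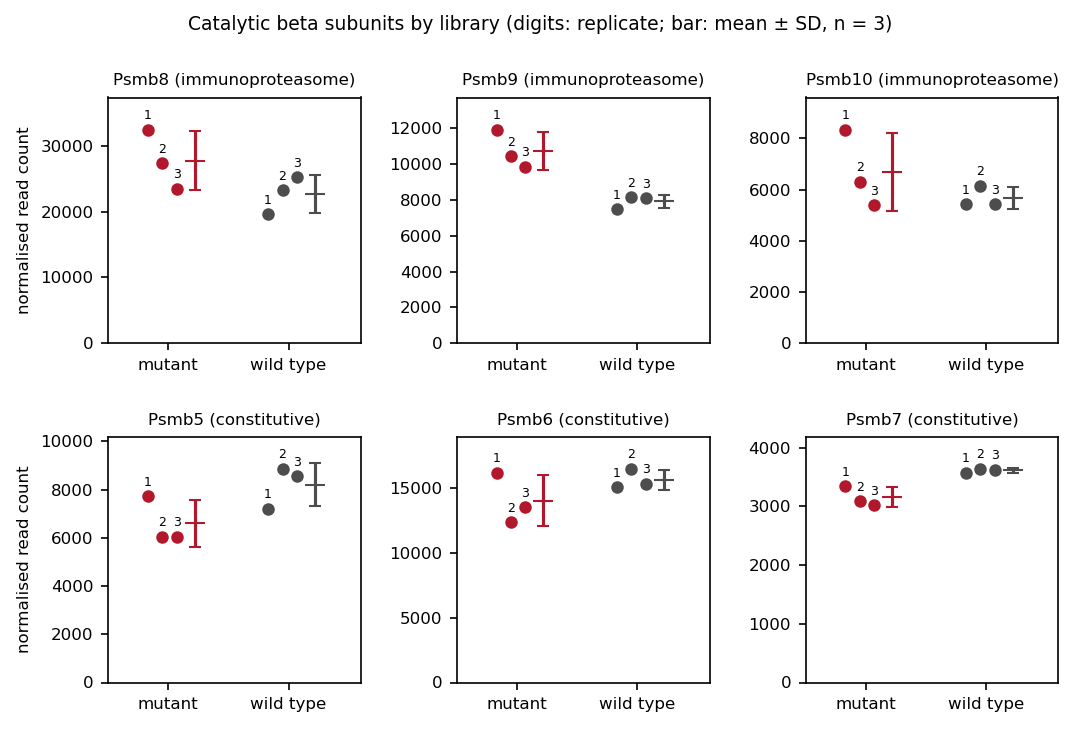
Normalised read counts of the immunoproteasome subunits (top) and of the constitutive subunits they replace (bottom) in each library, mutant left of wild type, with replicate numbers and mean ± SD (n = 3). Only Psmb9 (mutant above) and Psmb7 (mutant below) have no overlap between the genotypes, and mutant replicate 1 is the highest mutant point in all 6 panels.

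The balance between each immunoproteasome subunit and its counterpart can be read within a library, free of the scaling between libraries. The ratio of Psmb8 to Psmb5 reads was 4.20, 4.51 and 3.89 in the mutant libraries and 2.72, 2.63 and 2.94 in the wild-type libraries. That of Psmb9 to Psmb6 was 0.739, 0.846 and 0.730 in the mutant and 0.499, 0.496 and 0.529 in the wild type. That of Psmb10 to Psmb7 was 2.49, 2.04 and 1.79 in the mutant and 1.52, 1.69 and 1.496 in the wild type. For all 3 pairs every mutant library was above every wild-type library.

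On the log2 scale these ratios were higher in the mutant by 0.60, 0.60 and 0.41, or 1.52-fold, 1.52-fold and 1.33-fold. The SDs within a genotype were 0.11 (mutant) and 0.08 (wild type) for Psmb8 to Psmb5, 0.12 and 0.05 for Psmb9 to Psmb6, and 0.24 and 0.09 for Psmb10 to Psmb7. The two-sided exact permutation test over libraries gave p = 0.10 for each pair, also when adjusted over the 3 pairs, which is the smallest p that 3 against 3 libraries can give. The difference stayed between 0.55 and 0.66 for Psmb8, 0.53 and 0.64 for Psmb9 and 0.29 and 0.53 for Psmb10 whichever library was left out. Unlike the levels, the ratios of Psmb8 and Psmb9 in mutant replicate 1 lay between those of the other mutant libraries.

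**Figure D4:**
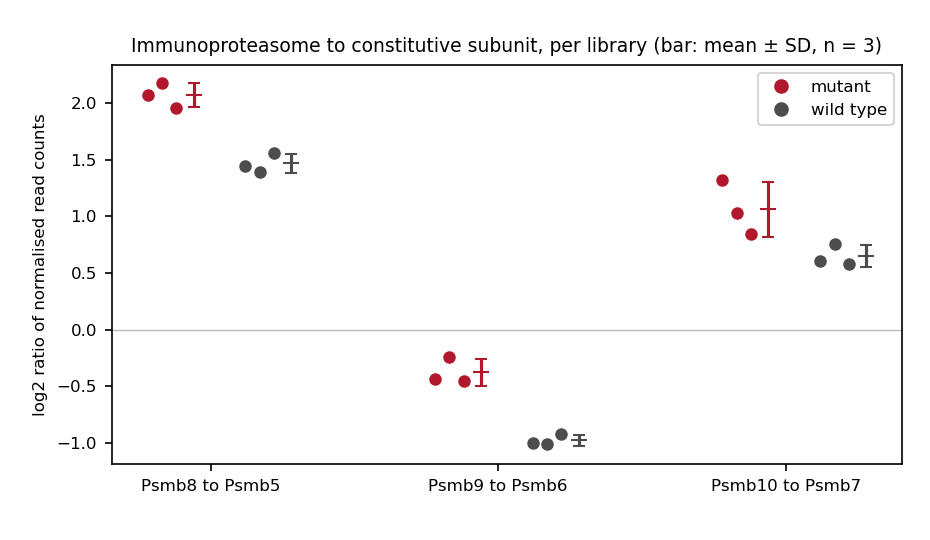
Log2 ratio of the reads of each immunoproteasome subunit to those of the constitutive subunit it replaces, for each library (points, mutant left of wild type), with mean ± SD (n = 3). The mutant points lie above all wild-type points for each of the 3 pairs.

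Levels of different genes compare only per length, here as normalised reads per kb of the principal mRNA. On this scale Psmb6 led in both genotypes (17522 in the mutant, 19533 in the wild type). Psmb8 came second in the mutant at 17046 and sixth in the wild type at 13947. Whether neighbours in this order differ was not tested. The median was 7147 in the mutant and 9101 in the wild type for the 14 constitutive core genes, and 5117 in the mutant and 6367 in the wild type for the 17 cap genes.

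The beta-ring gene of cortical thymic epithelium, Psmb11, had 6, 10 and 5 reads in the mutant and 1, 2 and 1 in the wild-type libraries, and was not tested. Of the 8 listed markers of that epithelium, Foxn1, Krt5 and Krt8 had no row, and the other markers summed to 7387 to 9986 in the mutant and 6932 to 7386 in the wild type, mostly from Epcam, Ly75 and Ccl25. Psma8, an alpha subunit of the testis, was at 195, 190 and 200 in the mutant and 96, 191 and 373 in the wild type. The wild-type libraries spread far more widely than the mutant libraries, and the log2 change was 0.04 ± 0.40 although the mutant mean was at 88.6% of the wild type.

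The base of the cap holds 6 ATPases, Psmc1 to Psmc6, the scaffold subunits Psmd1 and Psmd2, and the ubiquitin receptor Psmd4. Of the 9 genes 3 fell, with a median of -0.26. Psmd1 was at 8470, 9598 and 9917 in the mutant and 12261, 12687 and 15371 in the wild type, 69.4% of the wild-type mean (-0.52 ± 0.11, adjusted p = 0.0106). Psmc1 had 7972, 8486 and 7965 in the mutant and 9872, 11379 and 11701 in the wild type (-0.43 ± 0.10, adjusted p = 0.0136), a call lost without wild type replicate 2 (adjusted p = 0.0686).

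Psmd2, the most abundant cap gene in reads, averaged 16057 ± 687 in the mutant and 20453 ± 1828 in the wild type (SD, n = 3 each). Its log2 change was -0.35 ± 0.10 (adjusted p = 0.0308), which among the fits with 1 library dropped passed only without wild type replicate 1 (adjusted p up to 0.115 in the other 5). The other 5 ATPases were at 82.7% to 89.3% of the wild type, and adjusted p ran from 0.0789 (Psmc3) to 0.286 (Psmc2). Psmd4 was at 8524, 7800 and 6965 in the mutant and 8154, 8738 and 8548 in the wild type, and differed least (-0.13 ± 0.10, adjusted p = 0.394).

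In the lid 4 of 8 genes fell, with a median of -0.33. Psmd7, the scaffold partner of the deubiquitinase, was at 8555, 7691 and 7202 in the mutant and 11204, 12867 and 12424 in the wild type. The groups were far apart for this gene (-0.64 ± 0.10, adjusted p = 0.00237), and it was called in every fit that was run. Psmd14, the deubiquitinase itself, was even within the mutant, at 8657, 8622 and 8711, against 11075, 11131 and 12316 in the wild type (-0.41 ± 0.09, adjusted p = 0.0108).

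Psmd6 changed by -0.45 ± 0.10 (adjusted p = 0.0128, and 0.059 without wild type replicate 2) and Psmd12 by -0.39 ± 0.09 (adjusted p = 0.0173), both subunits of the lid's horseshoe. Psmd12 lost its call without mutant replicate 2 (adjusted p = 0.0598), wild type replicate 2 (0.0786) or wild type replicate 3 (0.0592). Psmd3, Psmd11 and Psmd13 had nearly equal log2 values of -0.26, -0.25 and -0.26 and did not pass (adjusted p = 0.0915, 0.171 and 0.121). Psmd8, the lid gene nearest to the wild type, was at 9103, 8062 and 7681 in the mutant and 8913, 9446 and 9331 in the wild type (adjusted p = 0.277).

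Genes of the factors that assemble the barrel had the lowest median change of the 10 roles. Psmg1 with Psmg2, and Psmg3 with Psmg4, form the pairs that guide alpha-ring assembly and leave before the proteasome is finished. All 4 fell, none of them with overlap between the genotypes, and their median log2 change was -0.46. Whether this exceeds the change of the subunits was not tested.

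Psmg1 was at 2129, 1942 and 1931 in the mutant and 3066, 3379 and 3752 in the wild type, 1.70-fold lower (-0.76 ± 0.11, adjusted p = 0.00177), and was called in every fit that was run. Psmg2 had 4700, 3855 and 3798 in the mutant and 5431, 5539 and 5739 in the wild type (-0.44 ± 0.11, adjusted p = 0.0197). Psmg3 had 1243, 1126 and 1085 in the mutant and 1464, 1713 and 1537 in the wild type (-0.45 ± 0.12, adjusted p = 0.0294). Psmg4 had 1298, 1031 and 1065 in the mutant and 1607, 1681 and 1409 in the wild type (-0.47 ± 0.14, adjusted p = 0.0366). The calls of Psmg2 and Psmg3 were lost on leaving out mutant replicates 2 or 3 or wild type replicates 2 or 3 (adjusted p up to 0.0717 and 0.127), and that of Psmg4 without mutant replicates 2 or 3 or wild type replicates 1 or 2 (up to 0.135).

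Of the 3 chaperones of the cap's base none passed in limma over all libraries, in edgeR or in DESeq2, and 1, Psmd5, had an unadjusted p under 0.05. Psmd9 had a log2 change of -0.03 (adjusted p = 0.872), with 25.5% of its exon bases overlapped by the antisense gene Gm26745, and Psmd10 was at 95.2% of the wild-type mean (adjusted p = 0.699). Psmd5 was at 84.1%, and although the genotypes did not overlap it did not pass (-0.25 ± 0.10, adjusted p = 0.118).

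Alternative activators dock on the barrel in place of the cap. Psme3, which forms the nuclear activator, was at 10545, 11542 and 11745 in the mutant and 15998, 17603 and 18265 in the wild type. It was 1.53-fold lower in the mutant (-0.62 ± 0.09, adjusted p = 0.00192), with the groups well apart, and was called in every fit that was run. Psme1 and Psme2, the paired subunits of the interferon-inducible activator, lie close together on chromosome 14.

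Psme1 was at 16385, 12920 and 11299 in the mutant and 13762, 14622 and 13073 in the wild type, and Psme2 at 13331, 10326 and 10144 in the mutant and 11206, 12796 and 11696 in the wild type. In both, mutant replicate 1 was the highest of the 6 libraries and the other mutant libraries were the lowest. Neither passed (log2 change -0.05 ± 0.13, interval -0.34 to 0.25, and -0.09 ± 0.12, interval -0.35 to 0.18). Psme2b averaged 735 ± 104 in the mutant and 698 ± 35.3 in the wild type. Its mRNA is 99.4% identical to that of Psme2 over 794 of 837 bases, so its reads may belong to either.

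Psme4, a nuclear activator linked to the breakdown of acetylated histones, was the other tested member with every mutant library above every wild-type library: 2123, 2065 and 2207 in the mutant and 1649, 1914 and 1621 in the wild type. Its log2 change of 0.31 ± 0.11 did not pass (adjusted p = 0.0876). Of the 18 other settings it passed only with library totals made equal (0.37, adjusted p = 0.0457). Psmf1, described as an inhibitor of the barrel, was at 96.2% of the wild type, with an interval of -0.27 to 0.16. Psmc3ip, the meiotic gene, was at 95.4% (adjusted p = 0.76).

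Mutant replicate 1 stood apart from the other mutant libraries across these genes. It was the highest mutant library for 41 of 49 members (83.7%, against 37.1% of all tested genes) and for all 14 constitutive core genes. Its median distance above the mean of the other mutant libraries was 0.34 on the log2 scale in the beta ring, 0.36 in the immunoproteasome, 0.20 in the alpha ring and 0.12 in both base and lid, against 0.02 over all tested genes. Wild type replicate 1 was the lowest wild-type library for 41 of 49 members (83.7%, against 35.5%) and for all 17 cap genes, with a median distance of -0.13. What sets these libraries apart was not tested.

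Of 15 proteasome partners outside the symbol rule 6 fell and Zfand5, which encodes an activator of the proteasome, rose (0.33, adjusted p = 0.047). Of all tested genes 10.9% were lower and 7.94% higher. The deubiquitinase genes Uchl5 and Usp14, whose products sit on the cap, changed by -0.54 ± 0.11 (adjusted p = 0.00644) and -0.52 ± 0.10 (0.00744), and the shuttle factor gene Ubqln4 by -0.50 ± 0.11 (0.0104). The cap's ubiquitin receptor Adrm1 (-0.25, adjusted p = 0.10), its small subunit Sem1 (-0.09) and the barrel's maturation factor Pomp (-0.15) did not pass. When 1 library was left out, 2 to 5 partners fell, against 6.10% to 9.99% of all tested genes. Without the trend of variance on expression no partner was called (adjusted p = 0.051, 0.0515 and 0.0524 for Uchl5, Usp14 and Ubqln4). In that fit 6.55% of all tested genes were lower. With 1 library left out Uchl5 and Usp14 were called each time, Ubqln4 missed without wild type replicate 2 (adjusted p = 0.059), and Zfand5 missed without mutant replicates 2 or 3 or wild type replicates 2 or 3 (up to 0.153). Among 10 genes of ubiquitin supply and extraction 3 fell, against 10.9% of all tested genes. Rps27a, a fusion of ubiquitin with a ribosomal protein, changed by -0.89 ± 0.11, the segregase Vcp by -0.36 ± 0.09 and the activating enzyme Uba1 by -0.30 ± 0.09, while Ubb (0.24 ± 0.11) did not pass. The call of Uba1 was lost without any 1 of the 6 libraries (adjusted p up to 0.138) and that of Vcp without wild type replicates 2 or 3 (0.0855 and 0.0516) or the variance trend (0.0843).

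Of 10 genes for transcription of proteasome genes 1 fell, near the 10.9% of all tested genes that did. It was Ddi2, the protease that releases Nfe2l1 (-0.39 ± 0.11, adjusted p = 0.0297). The call was lost without any 1 of the 6 libraries (up to 0.0966). Nfe2l1 itself was at 3165, 3328 and 2971 in the mutant and 3455, 3594 and 3423 in the wild type. Its libraries did not overlap, but it did not pass (-0.15 ± 0.10, adjusted p = 0.326). Nfyb (0.23 ± 0.10) and Ngly1 (0.19 ± 0.09) did not pass either.

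In class I antigen presentation 9 of 15 genes rose and Canx fell, with a median of 0.46. Of all tested genes 7.94% were higher and 10.9% lower. The histocompatibility gene H2-K1 changed by 0.65 ± 0.10 (adjusted p = 0.00217). Tap2, a chain of the peptide transporter, had 20301, 19798 and 16518 in the mutant and 10372, 11632 and 11503 in the wild type (0.75 ± 0.11, adjusted p = 0.00126). Tap1, the other chain, had 10471, 10746 and 9643 in the mutant and 8316, 8311 and 6708 in the wild type (0.41 ± 0.11, adjusted p = 0.0276), a call lost without mutant replicates 1 or 2 or wild type replicates 2 or 3 (up to 0.0906). With 1 library left out, 5 to 8 of the 15 genes rose, the 5 being the count without mutant replicate 2, wild type replicate 2 or wild type replicate 3. Without the trend of variance on expression 3 rose. Of all 17815 tested genes 819 to 1176 were higher with 1 library left out, and 749 without the trend. On chromosome 17 Tap1 and Tap2 alternate with the immunoproteasome genes, in the order Psmb9, Tap1 (34187553 to 34197225), Psmb8 (34197721 to 34201454) and Tap2 (34203527 to 34216321).

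Other cells of the thymus can be rich in immunoproteasome. Over the same libraries, the 8 myeloid and dendritic markers summed to 1391 to 2423 in the mutant and 1369 to 1957 in the wild type. Of these markers 0 of 5 tested were called, against 18.8% of all tested genes. Most of the sum was Lyz2, at 1092 to 2017 in the mutant and 1133 to 1598 in the wild type. Cd68 ran from 81.0 to 211 and Spi1 from 57.4 to 158 over all libraries, and Csf1r, Itgax and Adgre1 were at or under 15.3 in each. Of 6 B-cell markers, Ms4a1 and Pax5 had no row. The other 4 summed to 2438 to 3875 in the mutant and 2356 to 2782 in the wild type, nearly all from Cd79b. Of 6 NK and innate lymphoid markers, Ncr1 and Klrk1 had no row. The other 4 summed to 19912 to 31800 in the mutant and 14296 to 17529 in the wild type. Nkg7 rose (1.08 ± 0.24, adjusted p = 0.0125), a call lost with robust variance estimates (adjusted p = 0.0642) and without the variance trend (0.0822). Among 6 double-positive markers Cd1d1 rose and Ccr9 fell, and neither was called without wild type replicate 2 or without the variance trend. Their part in the values of Psmb8, Psmb9 and Psmb10 was not tested.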

How the data were processed

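Total RNA of 6 libraries was converted to cDNA with SMART-Seq v4 and prepared with Nextera XT for paired-end sequencing on an Illumina HiSeq, per the labels' protocols. These kits do not mark strand. STAR 2.5.3, featureCounts and DESeq2 1.20.0 and the builds mm10 and GRCm38 are named, per the submitters' processing notes. Not given in the sources used here are the annotation, the counting options and the gene filter. What the authors deposited is a signal per gene, read counts divided by 1 size factor per library: within each library 100.0% of 126810 values were whole multiples of 1 step within 0.1 reads, and the multiples served as recovered reads.

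Symbols and positions came from GENCODE M21 on GRCm38 (21100 of 21135 genes), promoter windows from RefSeq. limma 3.58.1 in R 4.3.3 (lmFit, eBayes with trend) was fitted to log2(value + 1) of 17815 genes with a mean of at least 10, mutant minus wild type, two-sided, with Benjamini-Hochberg adjustment over all of them. Where no other tool is named, adjusted p-values come from limma. Errors are SE for log2 changes and SD for levels. Fold changes on this scale understate those of rare genes. edgeR 4.0.16 and DESeq2 1.42.0 on recovered reads were alternatives, calling 1460 higher and 1823 lower genes (edgeR) and 1896 higher and 2272 lower genes (DESeq2). The methods were also run on simulated counts, the outcome of which is not reported here. Within a genotype, libraries differed by a chi-square of 26.7 to 55.3 per degree of freedom, more than sampling gives, and each counts as a replicate. Whether they come from different animals is unstated, and p-values refer to the spread among these 6 libraries, which may be technical.

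Every member is named. The rule gave values in each library for the catalytic and immunoproteasome subunits, Psme1, Psme2 and, in each role of 4 or more genes, the 2 members with the smallest p and those with the extreme changes, and named the 3 genes with the smallest p of each pathway list and Myc. Other genes and values were chosen after they were seen. Some genes of these lists are counted but not reported here by name. The members and lists were chosen with earlier results of these data known.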

Additional observations from a re-analysis of the deposited data

How the results depend on the processing

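The 17 lower members numbered 14 to 23 under other pseudocounts, filters, scalings, robust or weighted fits, edgeR (15) and DESeq2 (19). Without the variance trend 3 of 49 members were lower (Psmd7, Psme3 and Psmg1) and 0 were higher. In that fit 6.55% of all genes were lower, and 1916 genes were called in all. With equal library totals, which shift the median of all genes by 0.06, 2 members were higher (Psmb9 and Psme4) and the split of all genes was 1827 higher and 1647 lower, against 1414 higher and 1938 lower. Leaving out 1 library gave 5 to 22 lower members, 0 to 1 higher members and 1905 to 2788 genes, with 6.10% to 9.99% of all genes lower. Each of these last fits has fewer samples. For the others the cause was not tested. Of 882 values of single members under these settings, 788 kept direction and side of the threshold, 65 lost a call, 18 gained one and 11 changed sign, none of them called. These were Psmf1 (0.0041), Psmd9 (0.029) and Psme1 (0.014) with equal totals, Psma8 with edgeR (-0.17) and DESeq2 (-0.17), and, when 1 library was left out, Psma8 (-0.45 to 0.52), Psme2b (-0.043 to 0.15), Psmd9 (-0.087 to 0.033), Psme1 (-0.19 to 0.076) and Psmd10 (-0.15 to 0.017). The replicate numbers did not pair the libraries (correlation of deviations -0.02, -0.07 and -0.01), and with the number as a block 14 members were lower, 1 was higher, and 1339 genes were called higher and 1727 lower in all. The subunit ratios were rerun only with other pseudocounts, with 1 library left out and with the replicate number as a block. They kept their direction. Every mutant ratio lay above every wild-type ratio, so leaving out a library or adding the block could not have reversed it.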
